A study of Homo sapiens with 15 samples.

Results

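The 8 genes described here belong to the peroxisome proliferator-activated receptor (PPAR) pathway and were followed in IGROV-CP20 cells, a human ovarian cancer line that resists cisplatin. They were the receptors PPARA, PPARD and PPARG, their partner receptor RXRA, and the lipid target genes CPT1A, PLIN2, ANGPTL4 and PDK4. These 8 of the 47634 Ensembl genes in the count tables were chosen by name, because Telmisartan is a partial agonist of PPAR gamma, the protein made from PPARG. Expression was measured by QuantSeq, which sequences the 3′ ends of messenger RNAs, in 15 libraries, with 3 labelled biological replicates for each of 5 conditions. Untreated cells got neither cisplatin nor a drug, and a second condition got 50 µM cisplatin alone for 24 h. In the remaining conditions Telmisartan, Tranilast or Amphotericin B was given at 10 µM for 24 h, and 50 µM cisplatin for 24 h followed. All 3 drugs were therefore seen on a background of cisplatin, and no library with a drug but without cisplatin was analysed here. The libraries came from 1 resistant line, the labels do not say that replicates came from separate cultures or days, and the p-values measure the spread between these libraries.

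PPARs are nuclear receptors that bind fatty acids and related lipids. Each binds DNA together with a retinoid X receptor such as RXRA, at elements built from repeats of AGGTCA, and ligand binding exchanges corepressor proteins for coactivators. PPARA is best known for fatty acid oxidation in liver and heart, PPARD for oxidation in muscle and many other tissues, and PPARG for fat cell formation and lipid storage. CPT1A brings long-chain fatty acids into mitochondria for oxidation, PLIN2 coats lipid droplets, ANGPTL4 is a secreted inhibitor of lipoprotein lipase, and PDK4 is a kinase that shuts down pyruvate dehydrogenase. Telmisartan is a blood pressure drug that blocks the angiotensin receptor encoded by AGTR1, Tranilast is an anti-allergic drug, and Amphotericin B is an antifungal that binds membrane sterols.

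By GENCODE 29 on GRCh38, the receptor genes lie at chr22:46150521-46243756 (PPARA, ENSG00000186951), chr6:35342558-35428191 (PPARD, ENSG00000112033), chr3:12287368-12434356 (PPARG, ENSG00000132170) and chr9:134317098-134440585 (RXRA, ENSG00000186350), all on the plus strand. The target genes lie at chr11:68754620-68844410 (CPT1A, ENSG00000110090, minus strand), chr9:19108375-19149290 (PLIN2, ENSG00000147872, minus strand), chr19:8363289-8374373 (ANGPTL4, ENSG00000167772, plus strand) and chr7:95583499-95596491 (PDK4, ENSG00000004799, minus strand). All 8 are protein coding. The counts were made on hg19, so these positions place the genes and not the reads.

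The libraries held between 1510620 and 3517041 counts, and those with Amphotericin B were the smallest, at 1510620 to 1872639. Levels below are CPM (counts-per-million of a library), normalized with edgeR's TMM factors (trimmed mean of M-values), and values of 1 condition are given in the order of replicates 1, 2 and 3. A gene entered the tests when it passed a minimum expression filter, about 4.26 CPM before scaling in at least 3 libraries, which 11113 genes and 6 of the 8 genes described here did. Each comparison was tested by the quasi-likelihood method of edgeR, with p adjusted by Benjamini-Hochberg over the 11113 genes, and a gene was called when its adjusted p was under 0.05. Shares of all genes called are given for this fit only, and counts of calls from other fits show only how calls depend on the setting. Libraries of a condition were not equally alike. Mitochondrial ribosomal RNA made up 13.7%, 5.61% and 3.41% of the counts with cisplatin alone and 10.8%, 12.9% and 3.61% with Telmisartan, while it was 1.79% to 2.20% in untreated cells, 2.10% to 2.53% with Tranilast and 12.3% to 14.8% with Amphotericin B. The cause of this share was not tested, and values with it as a covariate, or with libraries split by it, stand beside several results. Cisplatin libraries overlap neither untreated nor Tranilast libraries on this share, so that covariate values for these comparisons rest on a slope from within conditions. Each pair of replicates differed by more than counting error, with a chi-square per degree of freedom between 2.24 and 44.2. Of the epithelial markers, KRT18 had 4770 counts over all libraries, EPCAM had 1066 and KRT8 had 609, whereas PAX8, MSLN and KRT7 had 1 count each, WT1 had 3 and MUC16 had 4. The summed leukocyte list was 75.7 to 91.4 CPM in untreated libraries and 4.15 to 28.4 CPM in the others. It rested on PTPRC with 1071 counts, since CD3E had 0 and MS4A1 had 3. The 5 adipocyte markers summed to at most 1.07 CPM, with 3 of them at 0 in every library.

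PPARG itself was too low to judge. It had 9, 12 and 8 counts in untreated cells, 3, 4 and 2 with cisplatin, 4, 5 and 4 with Telmisartan, 1, 4 and 11 with Tranilast, and 8, 5 and 10 with Amphotericin B, or 90 counts in all 15 libraries together. The filter cutoff was reached in 2 libraries, both with Amphotericin B, so that PPARG was not among the genes tested. On the normalized scale its level was 5.69, 4.01 and 7.45 CPM with Amphotericin B, above the 1.68, 1.96 and 0.794 CPM with cisplatin alone and the 2.87, 3.45 and 2.04 CPM in untreated cells. With Telmisartan it was 2.04, 2.76 and 1.10 CPM, a range that overlaps cisplatin alone. Tranilast libraries stood at 0.372, 1.09 and 2.48 CPM. When the filter was loosened to 1 CPM in 3 libraries, the log2 difference between Amphotericin B and cisplatin was 1.94 with an adjusted p of 0.0576 (edgeR, 14530 genes), and with no filter it was 1.90 with an adjusted p of 0.0723 (24733 genes). For Telmisartan against cisplatin the same 2 fits gave 0.38 in both, with adjusted p of 0.920 and 1. Tranilast against Amphotericin B gave −1.91 on the log2 scale (adjusted p = 0.0189) and −1.85 (adjusted p = 0.0255) in these edgeR fits. The libraries held 1 to 11 PPARG counts, and 36.0% of the 11113 genes were called in this comparison. PPARG therefore stays too low to judge. Over all 5 conditions PPARG had adjusted p of 0.0485 and 0.0681 in these fits.

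PPARA, the receptor tied to fatty acid oxidation, was higher in untreated cells than in any treated library. Its level was 19.1, 17.0 and 18.8 CPM in untreated cells and 11.2, 2.45 and 3.97 CPM with cisplatin alone. With Telmisartan it was 4.08, 6.08 and 5.78 CPM, with Tranilast 8.56, 8.45 and 11.96 CPM, and with Amphotericin B 7.82, 3.21 and 1.49 CPM. Cisplatin replicate 1 stood well above the other cisplatin libraries and inside the Tranilast range. The counts behind these values were small outside untreated cells, from 2 in an Amphotericin B library to 53 in a Tranilast library. In the order of the means, untreated cells came first, at 18.3 ± 1.17 CPM (SD, n = 3), and Tranilast came next, at 9.66 ± 1.996 CPM (SD, n = 3). No neighbours in that order differed at the threshold, with an adjusted p of 0.152 for untreated cells against Tranilast as the smallest (edgeR).

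PPARD, the broadly expressed member of the family, did not separate the conditions. Its level was 5.42, 2.302 and 4.84 CPM in untreated cells, 2.24, 1.96 and 6.75 CPM with cisplatin, 3.57, 4.42 and 4.13 CPM with Telmisartan, 5.21, 5.997 and 4.51 CPM with Tranilast, and 2.84, 8.02 and 1.49 CPM with Amphotericin B. The ranges of all conditions but Telmisartan and Tranilast overlapped each other. PPARD passed the filter through all 3 Tranilast libraries, 2 untreated libraries and 1 library of each other condition, and at 2 to 22 counts per library a moderate change was not detectable at this depth. The 95% interval of its log2 difference between Telmisartan and cisplatin, for example, ran from −1.08 to 1.24.

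RXRA, a retinoid X receptor with which PPARs bind DNA, differed between conditions, as PPARA did. It stood at 48.1, 53.5 and 45.1 CPM in untreated cells and at 15.7, 8.34 and 27.4 CPM with cisplatin alone. With Tranilast it was 55.5, 51.5 and 56.9 CPM, within or above the untreated range and above every cisplatin library. With Telmisartan it was 18.9, 21.5 and 46.0 CPM, so that replicate 3 lay in the untreated range and the others in the cisplatin range. With Amphotericin B it was 27.7, 24.9 and 20.1 CPM. In the order of the means, Tranilast and untreated cells led with 54.6 ± 2.77 and 48.9 ± 4.28 CPM (SD, n = 3 each), followed by Telmisartan, Amphotericin B and cisplatin alone. The gap between untreated cells and Telmisartan in this order had an adjusted p of 0.0969 (edgeR), and the other neighbours had adjusted p between 0.396 and 0.828.

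**Figure D1:**
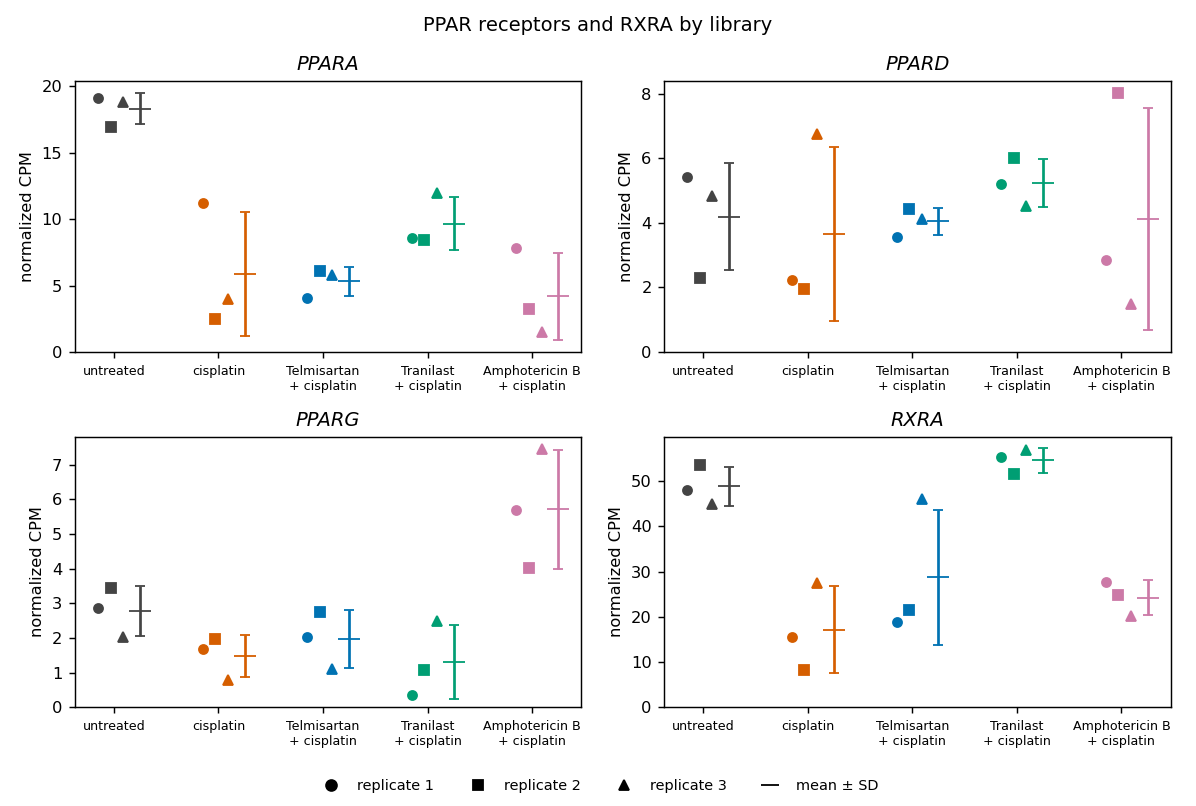
Normalized CPM of PPARA, PPARD, PPARG and RXRA in each of the 15 libraries, with a panel per gene and its own linear axis from 0; marker shape gives the replicate, and the bar gives mean ± SD of the 3 libraries of a condition. RXRA with Tranilast lies at 51.5 to 56.9 CPM, above all cisplatin libraries (8.34 to 27.4 CPM), and PPARG stays under 8 CPM throughout.

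Among the target genes, PDK4 was not detected. It had 0 counts in each of the 15 libraries, out of 37292186 counts, which allows a level of up to 0.853 to 1.99 CPM per library (3 counts) and 0.0804 CPM over all libraries, as counting error only. No fold change can be given for it. Of its relatives, which carry out the same reaction, PDK1 stood at 21.4, 18.1 and 20.1 CPM in untreated cells and at 11.2, 7.85 and 6.36 CPM with cisplatin alone. PDK1 fell by 1.25 on the log2 scale with cisplatin and was 0.79 higher with Tranilast than with cisplatin alone, with adjusted p of 0.00140 and 0.0459 (edgeR). The Tranilast difference was not called with RLE scaling factors, or without cisplatin replicate 2 or 3. PDK2 and PDK3 passed the test in none of the comparisons between 2 conditions, with condition means between 8.29 and 12.7 CPM for PDK2 and between 4.66 and 8.11 CPM for PDK3.

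The other target genes were measured well enough to compare, and their proximal promoters are shown because PLIN2 and ANGPTL4 rose while CPT1A fell with cisplatin. The sequences are the 250 bases before a RefSeq transcript start on GRCh38.p14, written 5′ to 3′ on the gene's strand. Capitals mark a TATAAA motif on either strand. Where a gene had several RefSeq starts, the most upstream was taken, and windows of its other starts are not shown. They come from chr19:8363905-8364154 (plus strand, ANGPTL4), chr9:19127493-19127742 (minus strand, PLIN2) and chr11:68844278-68844527 (minus strand, CPT1A), which is another build than the hg19 of the counts.
ANGPTL4: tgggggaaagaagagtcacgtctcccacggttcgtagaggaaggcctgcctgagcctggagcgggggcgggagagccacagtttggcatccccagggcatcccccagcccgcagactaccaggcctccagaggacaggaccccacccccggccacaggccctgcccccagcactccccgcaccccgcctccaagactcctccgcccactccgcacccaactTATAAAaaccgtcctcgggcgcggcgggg
PLIN2: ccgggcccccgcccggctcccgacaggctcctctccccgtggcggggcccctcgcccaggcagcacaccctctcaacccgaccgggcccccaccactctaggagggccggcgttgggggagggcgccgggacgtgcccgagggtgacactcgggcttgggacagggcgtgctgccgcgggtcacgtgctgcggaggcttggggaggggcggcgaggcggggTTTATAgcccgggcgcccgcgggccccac
CPT1A: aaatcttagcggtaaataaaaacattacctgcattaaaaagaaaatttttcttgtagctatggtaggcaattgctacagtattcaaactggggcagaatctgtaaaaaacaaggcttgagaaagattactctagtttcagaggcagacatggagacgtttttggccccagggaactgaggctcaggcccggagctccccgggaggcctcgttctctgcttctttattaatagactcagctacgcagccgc
In ANGPTL4 the motif begins 29 bases before the start, and in PLIN2 its reverse complement begins 29 bases before the start. The CPT1A window held no match. Of the 15 windows of the 8 genes, 4 held TATAAA, from ANGPTL4, PLIN2 and PPARG. TATAAA occurs in 10.7% of the 35116 RefSeq promoter windows of this length, counting both strands. The single motif AGGTCA, of which PPAR elements are built, occurs in 12.1% of windows, and among these 15 windows only in 3 of PPARG. The direct repeat AGGTCANAGGTCA occurs in 0.0171% of windows and in none of these 15. GC content was 68.8% for ANGPTL4, 78% for PLIN2 and 44.4% for CPT1A, against a median of 58% over all windows. These matches are letters in a window and were not tested against binding or expression.

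CPT1A, the gate to mitochondrial fatty acid oxidation, had the clearest separation of untreated from treated cells. It was 180.8, 169.8 and 188.6 CPM in untreated cells and 59.4, 22.1 and 29.8 CPM with cisplatin alone. With Telmisartan it was 30.1, 54.1 and 38.5 CPM, with Tranilast 41.7, 59.7 and 61.2 CPM, and with Amphotericin B 50.5, 58.6 and 44.7 CPM. All 12 treated libraries lay under all 3 untreated libraries, and the treated conditions overlapped each other. The means of treated conditions ran from 37.1 ± 19.7 CPM with cisplatin alone to 54.2 ± 10.9 CPM with Tranilast (SD, n = 3 each), with adjusted p between neighbours of 0.530 to 0.907 (edgeR). The step from untreated cells to Tranilast had an adjusted p of 0.000854 in the same test.

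PLIN2, the lipid droplet coat protein, ran opposite to CPT1A in having its lowest mean in untreated cells and its highest with cisplatin alone. It was 74.3, 66.5 and 80.4 CPM in untreated cells and 83.4, 209.5 and 180.3 CPM with cisplatin alone. Cisplatin replicate 1, the one with 13.7% mitochondrial ribosomal RNA, was thus close to untreated cells and less than the other cisplatin libraries. With Telmisartan PLIN2 was 124.0, 111.6 and 143.1 CPM, with Tranilast 145.5, 120.2 and 121.4 CPM, and with Amphotericin B 110.2, 95.4 and 92.4 CPM. All treated libraries were above all untreated libraries. Neighbours in the order of means (cisplatin alone, Tranilast, Telmisartan, Amphotericin B, untreated) had adjusted p of 0.176 to 0.963 (edgeR).

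ANGPTL4, the secreted lipase inhibitor, was low but measured in every library. It was 8.29, 8.92 and 5.60 CPM in untreated cells and 10.6, 13.7 and 19.9 CPM with cisplatin alone. With Telmisartan it was 13.3, 8.84 and 15.1 CPM, with Tranilast 12.7, 17.5 and 14.7 CPM, and with Amphotericin B 12.8, 14.4 and 12.7 CPM. Telmisartan replicate 2 overlapped the untreated range, and every other treated library lay above it. The last base of ANGPTL4 in GENCODE 29 is shared with RAB11B-AS1 on the opposite strand, and the strand setting of the counting is not given in the sources used here.

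**Figure D2:**
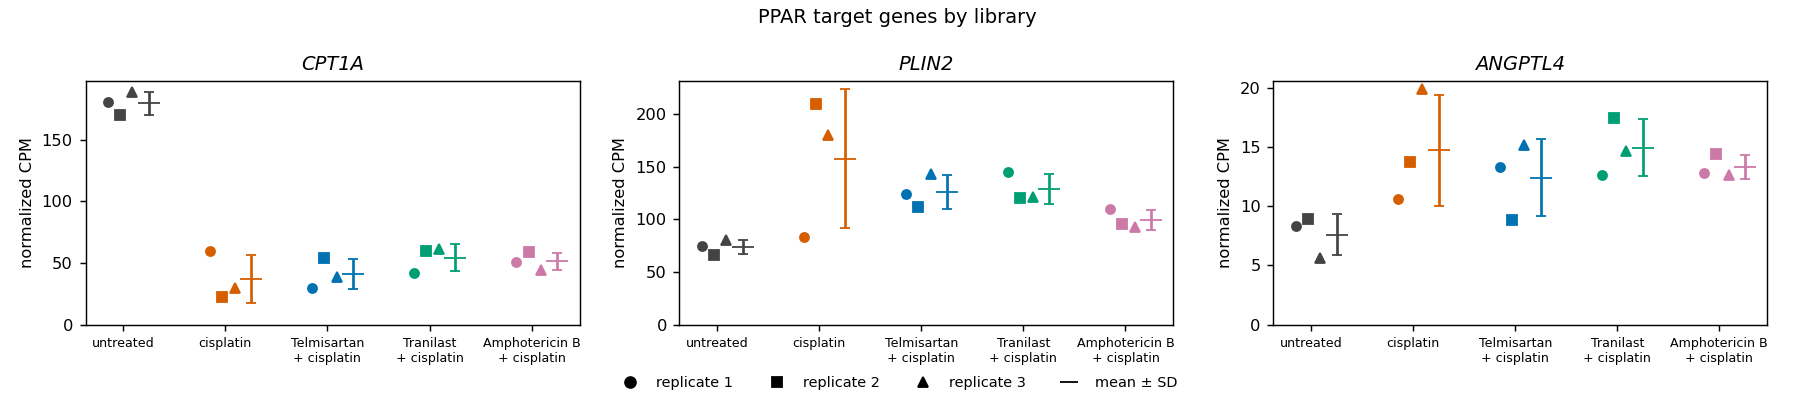
Normalized CPM of CPT1A, PLIN2 and ANGPTL4 in each library, on a linear axis from 0 for each gene; marker shape gives the replicate and the bar gives mean ± SD of 3 libraries. CPT1A drops from 169.8 to 188.6 CPM in untreated cells to at most 61.2 CPM in treated libraries, while PLIN2 in cisplatin replicate 1 (83.4 CPM) lies far below the other cisplatin libraries.

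The comparison of cisplatin with untreated cells shows what cisplatin alone did to these genes. PPARA fell 3.22-fold, RXRA fell 2.80-fold and CPT1A fell 4.89-fold, whereas PLIN2 rose 2.14-fold and ANGPTL4 rose 1.97-fold. In log2 units the change was −1.69 ± 0.42 for PPARA (SE, adjusted p = 0.00392), −1.48 ± 0.34 for RXRA (adjusted p = 0.00204) and −2.29 ± 0.29 for CPT1A (adjusted p = 1.75e-05), with edgeR's quasi-likelihood test. For PLIN2 it was 1.10 ± 0.24 (adjusted p = 0.00173) and for ANGPTL4 0.98 ± 0.30 (adjusted p = 0.0134). PPARD, at −0.13 ± 0.52, was not called (adjusted p = 0.863). These are 5 of the 6 genes tested, beside 44.7% of all 11113 genes in this comparison, of which 21.1% were higher and 23.6% lower. In bulk RNA, fewer cells of a type and less RNA per cell cannot be told apart in such a change. The rises depended on the scaling: without TMM factors, by library size only, the median of all genes moved to −0.36, PLIN2 was 0.81 (adjusted p = 0.0626) and ANGPTL4 was 0.66 (adjusted p = 0.187). ANGPTL4 also missed the threshold without untreated replicate 3 (0.78, adjusted p = 0.0763) and without cisplatin replicate 3 (0.69, adjusted p = 0.101), whereas without cisplatin replicate 1 the 5 calls stayed, with PPARA at −2.48 and CPT1A at −2.80.

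Telmisartan, the PPAR gamma agonist, was compared with cisplatin alone to ask whether its addition moved the receptors or their target genes. Of the 6 genes tested 0 passed the threshold, beside 0% of all genes in this comparison. The smallest adjusted p of any gene was 0.294, 1150 genes had an unadjusted p under 0.05, and DESeq2 called 30. Among the target genes the log2 difference was 0.15 for CPT1A (95% interval −0.47 to 0.77), −0.32 for PLIN2 (−0.83 to 0.19) and −0.24 for ANGPTL4 (−0.86 to 0.38). These intervals leave room for a change of either sign in each target gene. PPARA was at −0.08 (−1.11 to 0.95). RXRA had the smallest p of the 6, with a difference of 0.77 (0.04 to 1.495), an unadjusted p of 0.0407 and an adjusted p of 0.457 in edgeR's test. This value rests on Telmisartan replicate 3, without which the difference was 0.20. Replicate 3 was also the Telmisartan library with 3.61% mitochondrial ribosomal RNA. Set against the cisplatin libraries under 8% it was 1.31 higher in RXRA, and among libraries over 8%, with 1 cisplatin library, the RXRA difference was 0.36. Both values have a single library on 1 side, chosen after the levels were seen, and are given with no test. AGTR1 and AGTR2, the angiotensin receptors, had 0 counts in all libraries.

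With Tranilast, compared with cisplatin alone in the same way, RXRA was higher. The difference was 1.64 ± 0.34 on the log2 scale (adjusted p = 0.00393, edgeR), from 17.1 to 54.6 CPM, and RXRA was the only call among the 6 genes tested, beside 22.2% of all genes. It passed the threshold in all other fits tried, with values from 1.18 to 2.20. PPARA (0.78, adjusted p = 0.206) and CPT1A (0.57, adjusted p = 0.158) were not called, nor was PLIN2 (−0.29, adjusted p = 0.394). ANGPTL4 differed by 0.00 with a 95% interval from −0.59 to 0.60. Whether PPARA, CPT1A and PLIN2 were called depended on cisplatin replicate 1. Without it, PPARA was 1.58 (adjusted p = 0.0146) and CPT1A 1.07 (adjusted p = 0.00472) higher and PLIN2 −0.58 (adjusted p = 0.0194), so that 4 genes were called. With mitochondrial ribosomal RNA entered as a covariate the values were 1.27 (adjusted p = 0.0411), 0.99 (adjusted p = 0.00468) and −0.64 (adjusted p = 0.00838) in the same order. Tranilast and cisplatin libraries do not overlap on this share. The cisplatin libraries under 8% are replicates 2 and 3, so that the split compares the same libraries as leaving out replicate 1. Its values, 1.57, 1.06 and −0.60 and all called, are therefore not a separate result. Scaled by library size only, where the median of all genes was 0.46, PPARA at 1.29 and CPT1A at 1.08 were called too, and PLIN2 turned to 0.10.

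Amphotericin B gave 0 calls among the 6 genes against cisplatin alone, beside 13.2% of all genes. The nearest was PLIN2, at −0.67 (95% interval −1.19 to −0.15), with an unadjusted p of 0.0147 and an adjusted p of 0.0775 in edgeR's test. It was the only gene of the 6 with an unadjusted p under 0.05, and with no expression filter it was −0.73 with an adjusted p of 0.0288. The differences of RXRA (0.47) and CPT1A (0.48) had 95% intervals that include 0. The result for PLIN2 and CPT1A again turned on cisplatin replicate 1. Without it, PLIN2 was −0.93 (adjusted p = 0.000771) and CPT1A 1.01 (adjusted p = 0.00611), whereas against that library alone, the only cisplatin library over 8% mitochondrial ribosomal RNA, they were 0.25 and −0.21, values from a single library chosen after the levels were seen and given with no test.

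**Figure D3:**
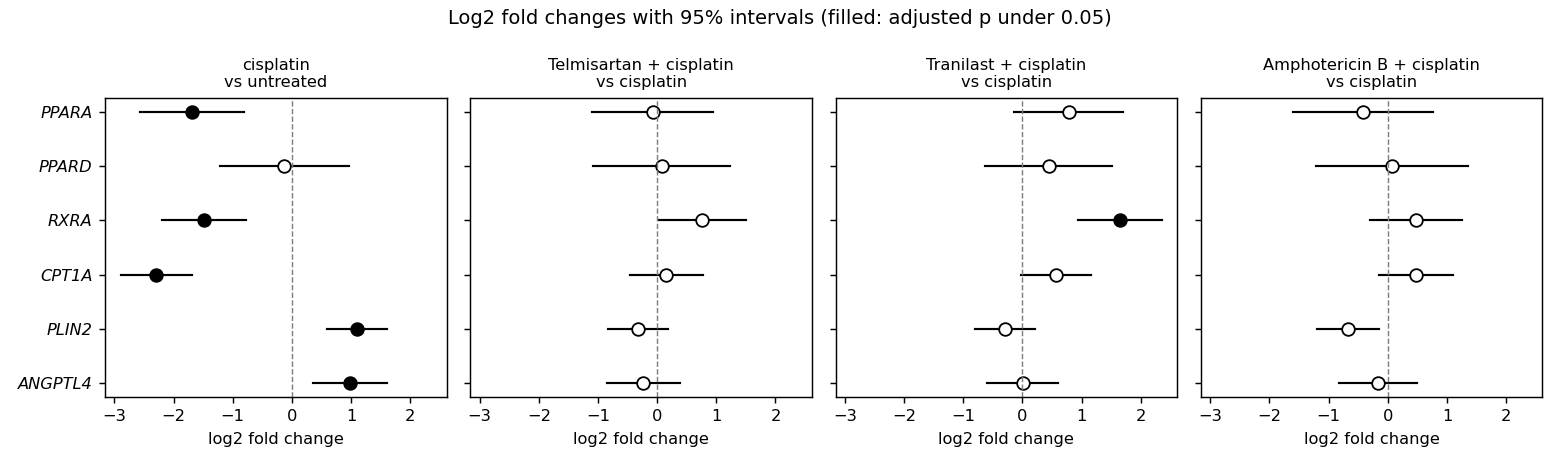
Log2 fold changes with 95% intervals for the 6 genes tested in 4 comparisons, from edgeR's quasi-likelihood fit of all 15 libraries; filled points have an adjusted p under 0.05. With cisplatin 5 of 6 are filled, with Tranilast only RXRA, and with Telmisartan and Amphotericin B none, with the PPARA and PPARD intervals the widest.

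Against untreated cells, all drug conditions kept CPT1A low. It was −2.14 with Telmisartan (adjusted p = 8.01e-05), −1.72 with Tranilast (adjusted p = 0.000854) and −1.81 with Amphotericin B (adjusted p = 0.000180), in edgeR's test and on the log2 scale. PPARA was lower with Telmisartan (−1.76) and Amphotericin B (−2.10), and at −0.91 with Tranilast it was not called (adjusted p = 0.152). RXRA was lower with Amphotericin B (−1.01, adjusted p = 0.0252), while its difference was −0.72 with Telmisartan (adjusted p = 0.0969) and 0.16 with Tranilast, with a 95% interval from −0.48 to 0.80. PLIN2 was higher with Telmisartan (0.78) and Tranilast (0.81), and its difference with Amphotericin B was 0.43 (adjusted p = 0.176). ANGPTL4 was higher with Tranilast (0.98, adjusted p = 0.0412) and did not pass with Telmisartan (0.74, adjusted p = 0.0708) or Amphotericin B (0.81, adjusted p = 0.0517). In each of these comparisons 3 of 6 genes were called, beside 28.7% of all genes for Telmisartan, 8.10% for Tranilast and 40.9% for Amphotericin B. For Tranilast this count dropped to 1 when any 1 of its own libraries or of the untreated libraries was left out. The comparisons with cisplatin share the 3 cisplatin libraries, and those with untreated cells share the 3 untreated libraries.

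The drugs were also compared with each other, where no shared control enters. RXRA was 1.17 ± 0.34 higher on the log2 scale with Tranilast than with Amphotericin B (adjusted p = 0.0142, edgeR), the only call of the 6 beside 36.0% of all genes. Leaving out Amphotericin B replicate 3 ended this call, as did entering mitochondrial ribosomal RNA as a covariate, a share on which these conditions do not overlap. RXRA was −0.88 with Telmisartan against Tranilast (95% interval −1.55 to −0.21, adjusted p = 0.113), where 0 genes of the 6 were called beside 2.34% of all genes. Telmisartan and Amphotericin B gave 0 calls among the 6 beside 0% of all genes, with 2283 genes at an unadjusted p under 0.05, 0 of them among the 6, and 184 calls by DESeq2. Over all 5 conditions, PPARA, RXRA, ANGPTL4, PLIN2 and CPT1A differed (adjusted p of 0.00241, 0.00239, 0.0473, 0.0108 and 2.04e-05, edgeR), beside 52.3% of all genes, and PPARD did not pass (adjusted p = 0.912).

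**Figure D4:**
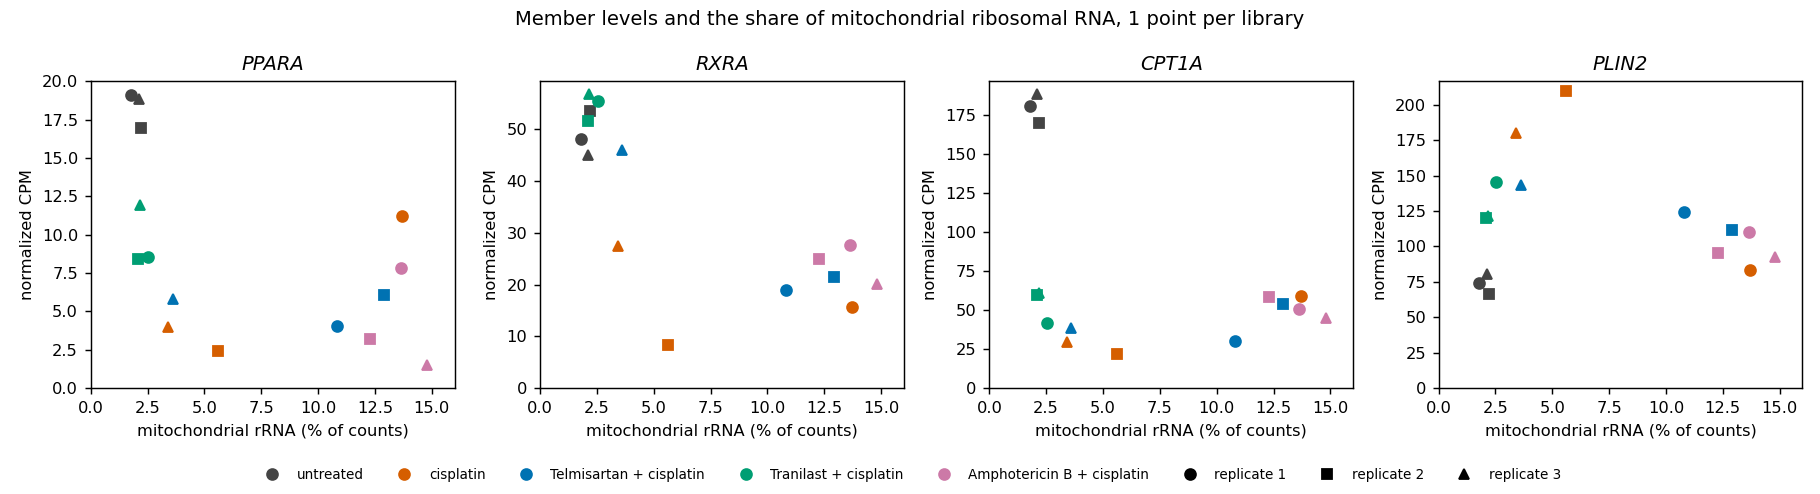
Normalized CPM of PPARA, RXRA, CPT1A and PLIN2 against the share of counts on mitochondrial ribosomal RNA, with 1 point per library, color for the condition and shape for the replicate. Cisplatin replicate 1, at 13.7%, lies near the Amphotericin B libraries in PLIN2 and CPT1A, and away from the other cisplatin libraries.

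Other genes of the pathway gave a wider view, from a list of 99 genes sorted by role, of which 98 were in the tables and 61 were tested. With cisplatin, 5 of the 61 were higher and 20 lower than in untreated cells, beside 21.1% and 23.6% of all genes, and their median log2 change was −0.46 beside −0.01 over all genes. With Tranilast, 15 were higher and 1 lower than with cisplatin alone, beside 10.5% and 11.6% of all genes, and their median was 0.10 beside 0.02. With Amphotericin B, 2 were higher and 3 lower, beside 4.21% and 9.01%. With Telmisartan 0 of the 61 were called beside 0%, and 5 had an unadjusted p under 0.05. Without cisplatin replicate 1 the calls were 7 for Telmisartan, 23 for Tranilast and 18 for Amphotericin B, and without cisplatin replicate 2 they were 0, 7 and 0. Without cisplatin replicate 3 they were 0 for Telmisartan, 12 for Tranilast and 0 for Amphotericin B. The share of all genes called in these fits is not given, so that these counts show only how calls depend on single libraries.

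Coregulators, the proteins that PPARs and other nuclear receptors recruit to open or close chromatin, made up many of these calls. With cisplatin 7 of the 12 tested fell and 0 rose (median −1.36), and with Tranilast 6 were higher than with cisplatin alone and 0 lower (median 1.09). The shares of all genes were 23.6% lower with cisplatin and 10.5% higher with Tranilast. Without cisplatin replicate 2 the Tranilast count was 3, and without cisplatin replicate 3 it was 4, while without cisplatin replicate 1 it was 6 higher and 1 lower. With RLE scaling factors 1 was higher and 7 lower with cisplatin. Scaled by library size only, these counts were 7 lower and 0 higher with cisplatin, and 7 higher and 0 lower with Tranilast. NCOA3, a coactivator, was 120.8, 104.7 and 123.5 CPM in untreated cells, 26.3, 13.2 and 30.2 CPM with cisplatin and 59.5, 75.8 and 74.3 CPM with Tranilast. Its log2 change was −2.31 with cisplatin and 1.58 with Tranilast, with adjusted p of 3.38e-05 and 0.00356 (edgeR). The acetyltransferase CREBBP (−1.65 and 1.37) and the corepressor NCOR1 (−1.64 and 1.08) went the same way, with adjusted p of 0.00445 or less in edgeR's test.

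Genes of fatty acid uptake and activation were more mixed. With cisplatin 5 of 9 tested fell and 1 rose, beside 23.6% and 21.1% of all genes. With Tranilast 4 were higher and 1 lower than with cisplatin alone, beside 10.5% and 11.6%. These counts were the same by library size only. Without cisplatin replicate 2 or 3, or with mitochondrial ribosomal RNA as a covariate, 3 were higher with Tranilast. ACSL3, an enzyme that links fatty acids to coenzyme A, was 346.2, 318.5 and 315.7 CPM in untreated cells, 68.3, 45.1 and 43.7 CPM with cisplatin and 115.4, 151.0 and 154.4 CPM with Tranilast. It fell by 2.65 with cisplatin and was 1.43 higher with Tranilast (adjusted p of 9.47e-07 and 0.00114, edgeR). FABP5, a carrier of fatty acids in the cytosol, went the other way in both, from 14.4, 10.9 and 11.5 CPM in untreated cells to 57.1, 67.7 and 45.3 CPM with cisplatin, and to 22.0, 22.9 and 17.8 CPM with Tranilast. Its change was 2.21 with cisplatin and −1.44 with Tranilast (adjusted p of 9.69e-06 and 0.00193, edgeR). With Telmisartan FABP5 was 54.1, 46.4 and 27.8 CPM, and with Amphotericin B 61.2, 57.8 and 44.0 CPM, overlapping cisplatin alone. SLC27A2, an acyl-CoA synthetase that also takes up fatty acids, fell by 2.18 with cisplatin and was 1.499 higher with Tranilast. VLDLR, a lipoprotein receptor, was 2.85 higher with Tranilast than with cisplatin alone, on levels of 5.58 to 8.18 CPM against 0.56 to 1.47 CPM. It had 1, 3 and 2 counts with cisplatin alone, so that its changes with cisplatin and with Tranilast both rest on levels near 0. The others that fell with cisplatin were VLDLR (−2.66), the fatty acid receptor CD36 (−2.22) and ACSL4 (−1.20), a relative of ACSL3, and ACSL4 was the other gene higher with Tranilast (0.84).

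For the genes that oxidize fatty acids downstream of CPT1A the count depended on the setting. Of 18 mitochondrial oxidation genes tested, 0 were higher and 1 was lower with cisplatin (median −0.06), beside 21.1% and 23.6% of all genes. The lower count was 5 without cisplatin replicate 1, 7 by library size only, 6 in the libraries under 8% mitochondrial ribosomal RNA and 8 with that share as a covariate (median −0.48), and 1 gene was higher in each of the last 2 settings. With Tranilast 1 gene, the carnitine carrier SLC25A20, was higher and 0 lower, beside 10.5% and 11.6% of all genes. This count was 0 without cisplatin replicate 2, 3 without replicate 1 and under 8%, and 4 by library size only or with the covariate. In both comparisons the split under 8% uses the same libraries as leaving out cisplatin replicate 1. The gene that fell with cisplatin was HADHA, a subunit of the trifunctional protein, from 511.1 ± 18.4 to 261.0 ± 79.3 CPM (SD, n = 3 each). With Amphotericin B, HADHA (0.64) and ETFB (0.81), an electron carrier of the same pathway, were higher than with cisplatin alone, with adjusted p of 0.0435 and 0.0398 (edgeR). These 2 calls became 7 without cisplatin replicate 1, and 0 without cisplatin replicate 2 or 3, by library size only or with the covariate. Of 6 peroxisomal oxidation genes tested, 2 fell with cisplatin, HSD17B4 (−1.34) and CAT (−0.83), and 0 passed with any drug against cisplatin alone. Without cisplatin replicate 1, 1 was higher with each drug, and by library size only 2 were higher with Tranilast. With RLE scaling factors 1 was higher with Amphotericin B, and with the covariate 1 was higher with Tranilast. Without cisplatin replicate 3, or with the covariate, 1 fell with cisplatin.

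Lipid droplet and lipolysis genes were the group in which PLIN2 had company. Of 6 tested, 3 were higher with cisplatin and 0 lower (median 0.45), beside 21.1% and 23.6% of all genes, but scaled by library size only 0 were higher and 2 lower (median 0.08). Without cisplatin replicate 2 there was 1 higher and 1 lower, and without cisplatin replicate 3 there was 1 higher and 0 lower. The 3 genes were HILPDA, an inhibitor of lipolysis (1.29, adjusted p = 0.00915), the droplet protein PLIN3 (0.53, adjusted p = 0.0140) and ABHD5, an activator of lipolysis (1.48, adjusted p = 0.0416), in edgeR's test. ABHD5 rests on low counts, with 10, 4 and 4 in untreated cells and 3, 12 and 17 with cisplatin. Its cisplatin replicate 1 (1.68 CPM) lay within the untreated range (1.02 to 3.19 CPM), and it passed the filter through treated libraries. HILPDA was 63.8, 60.7 and 61.6 CPM in untreated cells and 47.6, 207.5 and 197.4 CPM with cisplatin, so that cisplatin replicate 1 was below the untreated libraries as PLIN2 was near them. With Amphotericin B it was 51.2, 88.2 and 47.0 CPM, and its difference from cisplatin alone was −1.29 (adjusted p = 0.0355, edgeR). It was the only call of the 6 in this comparison, beside 9.01% of all genes lower. The call was lost without cisplatin replicate 2 or 3 and with the covariate.

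Of 7 adipocyte and glucose genes tested, 1 rose (CEBPA, 1.44) and 4 fell with cisplatin, beside 21.1% and 23.6% of all genes, and 3 were higher with Tranilast than with cisplatin alone, beside 10.5%. With RLE scaling factors 2 fell with cisplatin. The Tranilast count was 0 without cisplatin replicate 2 and 5 by library size only. PCK2, a mitochondrial enzyme of glucose synthesis, fell by 1.15 with cisplatin (adjusted p = 0.000257, edgeR) and was 0.76 higher with Tranilast. LPIN1, a phosphatidate phosphatase, went the same way (−0.81 and 1.07), and the others that fell with cisplatin were CEBPB (−1.14) and SCD (−0.50). CEBPB, a transcription factor that acts before PPARG in fat cell formation, was 1.17 higher with Tranilast (adjusted p = 0.0137, edgeR), at 150.0, 146.9 and 150.3 CPM against 48.7, 41.2 and 107.6 CPM. CEBPA, a partner of PPARG in fat cells, was 1.15 lower with Amphotericin B than with cisplatin alone (adjusted p = 0.0385, edgeR), and SCD, which desaturates fatty acids, was 0.59 lower (adjusted p = 0.0343, edgeR). Lower calls with Amphotericin B thus numbered 2 of 7, beside 9.01% of all genes. They became 1 with RLE scaling factors, by library size only, with the covariate or without cisplatin replicate 1, and 0 without cisplatin replicate 2 or 3.

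**Figure D5:**
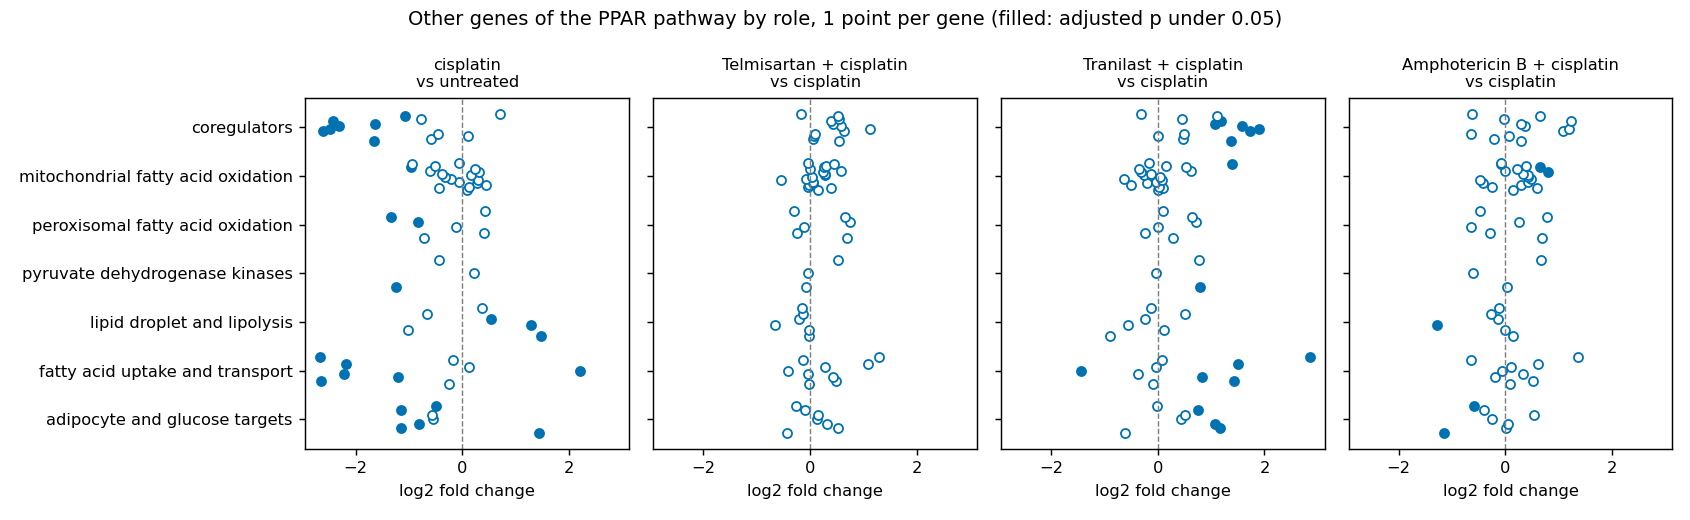
Log2 fold changes of the other 61 pathway genes tested, in rows by role, with 1 point per gene and a panel for each of 4 comparisons; filled points have an adjusted p under 0.05. Coregulators have a median of −1.36 with cisplatin and 1.09 with Tranilast, with PPRC1 (0.71 and −0.31) on the other side of 0 in both, and the Telmisartan panel holds no filled point.

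For the 5 genes that differed over the conditions, the genes with the most similar course were found by the root mean square difference of centred mean log2 CPM over the 5 conditions, among the other 11112 genes tested. PPARA was closest to CLDN1 (0.0846) and GPC2 (0.0867), beside a median distance of 0.758 for all genes. RXRA was closest to THAP8 (0.0831) and MAP3K20 (0.0961). CPT1A had PLTP (0.0262), the phospholipid transfer protein, and OSBP2 (0.0866). OSBP2 passed the filter through untreated cells, at a mean of 4.52 CPM beside 0.350 to 0.764 CPM in treated conditions, so that its likeness rests on levels near 0. PLIN2 had NELFB (0.0304) and CSRNP1 (0.0342), and ANGPTL4 had E2F7 (0.0524) and RNPEPL1 (0.0532). These distances rest on 5 condition means and describe a likeness of levels only.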

How the data were processed

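RNA of 15 IGROV-CP20 samples was sequenced by the authors with the Lexogen QuantSeq 3′ kit (100 ng RNA, single reads of 75 bp). Per the labels, reads were aligned with STAR 2.3.0 to hg19 and counted with HTSeq. The annotation release and the strand setting are not given in the sources used here. The deposited tables hold raw counts for 47634 Ensembl identifiers, 1 library per table, without normalization, and 45455 identifiers matched a symbol in the name table. Total counts ran from 1510620 to 3517041, and floors of 3 counts cover counting error only.

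From these counts, genes were filtered with filterByExpr (minimum count of 10), scaled with TMM factors and fitted over all 15 libraries with a term per condition by edgeR 4.0.16 (quasi-likelihood, R 4.3.3), and p was adjusted by Benjamini and Hochberg within each comparison. The standard error of a log2 fold change is its absolute value divided by the root of its F statistic. Alternatives were RLE factors, library size only, DESeq2 1.42.0, edgeR's likelihood-ratio test, no filter, a filter of 1 CPM in 3 libraries, the replicate number as a block, mitochondrial ribosomal RNA (percent of counts) entered as a covariate, the 6 libraries of a comparison alone, and each library left out. A split of the libraries at 8% mitochondrial ribosomal RNA was added after seeing the data. The procedure was tested on simulated data for cisplatin against untreated cells: 81 of 98 genes changed by 2 on the log2 scale and 33 of 97 changed by 1 were found among 10799 tested, with 6 false calls, and an unchanged comparison gave 0.

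All 8 genes are named. Of the 99 other pathway genes, up to 8 per main comparison with the smallest adjusted p are named, as are relatives (PDK1, PDK2, PDK3, AGTR1, AGTR2) and the 2 genes most like each of the 8 that differed over the conditions. Some genes that this rule would name are not reported here. Called genes of small groups were named after their values were seen. The genes, lists and tests were chosen with earlier results of these data known. The symbols TXNIP and PECAM1 were not matched and are not used here. Marker lists not described in the results were endothelial, summing to at most 0.333 CPM, and fibroblast, summing to between 8.84 and 43.4 CPM, with 1 of its 4 genes above 10 counts in a library. Promoter sequences are from RefSeq on GRCh38.p14, positions from GENCODE 29, and figures were drawn with Python 3.11.15 and matplotlib 3.10.9.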

Additional observations from a re-analysis of the deposited data

How the results depend on the processing

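Counts below are of the 6 genes and, as pathway genes, of the 61 others tested, at an adjusted p under 0.05. Shares of all genes are not set beside them, and they describe only how calls depend on the setting. The direction and the call of PPARA, RXRA and CPT1A with cisplatin, and of RXRA with Tranilast, held in every alternative. Scaled by library size only, the calls among the 6 genes were 3 for cisplatin against untreated cells, 3 for Tranilast against cisplatin, 1 for Tranilast against untreated cells and 4 for Tranilast against Amphotericin B, and pathway calls were 26 for Tranilast and 2 for Amphotericin B against cisplatin. For the same Amphotericin B pathway count, DESeq2 gave 8, the covariate 3 and the 6 libraries alone 0. Tranilast against Amphotericin B gave 2 calls by the likelihood-ratio test, 3 with no filter, 2 with the filter of 1 CPM and 0 with the covariate. With no filter there was 1 call for Amphotericin B against cisplatin and 1 for Telmisartan against Tranilast. The covariate gave 4 calls for Tranilast against cisplatin and 2 pathway calls for Telmisartan, the 6 libraries alone gave 5 calls for Amphotericin B against untreated cells, and the split under 8% gave 1 call and 9 pathway calls for Telmisartan and 4 calls for Tranilast. Under 8% the only Telmisartan library is replicate 3. Its Telmisartan counts therefore have a single library on 1 side, chosen after the levels were seen. They show no difference between the conditions and describe the setting only. The cause of the changes between settings was not tested.

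The replicate number as a block left 1 call in place of 3 for Tranilast against untreated cells and changed no other count by over 1.5 times. The pairing was not borne out, since the deviations of libraries with the same number correlated at −0.17 to 0.63 between Telmisartan and cisplatin and at −0.23 to −0.07 between Tranilast and cisplatin, and libraries did not all correlate best with their own number.

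Leaving out 1 library in turn gave 4 to 5 calls for cisplatin against untreated cells and 21 to 31 pathway calls. Against cisplatin it gave 0 calls and 0 to 7 pathway calls for Telmisartan, 1 to 4 and 7 to 23 for Tranilast, and 0 to 2 and 0 to 18 for Amphotericin B. Against untreated cells it gave 2 to 4 calls for Telmisartan, 1 to 4 for Tranilast and 2 to 5 for Amphotericin B. It gave 0 to 1 calls for Telmisartan against Tranilast, 0 to 2 for Tranilast against Amphotericin B, and 4 to 6 over all conditions.

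Differences that turned their sign had not been called in either fit. PPARD with cisplatin was 0.26 with the covariate and 0.12 in the split under 8%, and −0.98 to 0.17 with a library left out. For Telmisartan, PPARA was 0.10 by library size and 0.81 under 8% (−0.41 to 0.74 with a library left out), PPARD −0.14 under 8% (−0.19 to 0.94), and over 8% ANGPTL4 was 0.063 (−0.43 to 0.054), PLIN2 0.50 and CPT1A −0.50 (−0.091 to 0.68). For Tranilast, ANGPTL4 was −0.051 with RLE factors, −0.053 with DESeq2, −0.000258 by the likelihood-ratio test, −0.33 with the covariate and −0.18 under 8% (−0.16 to 0.30), and PLIN2 was 0.10 by library size. For Amphotericin B, PPARD was −0.16 by library size (−0.80 to 0.93), ANGPTL4 0.32 with the covariate and 0.32 over 8% (−0.31 to 0.11), PLIN2 0.25 and CPT1A −0.21 over 8%, and PPARA ran from −1.27 to 0.41 with a library left out. In the simulation a change of 1 on the log2 scale was found in 33 of 97 cases. These were genes of all levels that passed the filter, which PPARG did not. Far fewer genes were changed there than were called with cisplatin, so that this share does not give the power of these comparisons. Changes of that size among low genes such as PPARD and PPARG can still be missed.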
